A study of Homo sapiens with 8 samples.

Results

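The genes described here are the heat shock proteins and DNAJ chaperones, taken as the 72 rows whose symbol belongs to the families HSPA (with HSPH1), HSPB, HSPD1 with HSPE1, HSP90, DNAJA, DNAJB or DNAJC, out of 39533 genes in the count table. They were measured by RNA-seq in 8 libraries of HCT116 cells, an established human colorectal cancer line, although the title of the study speaks of liver cancer. In a tumour self-seeding model, cells that leave a tumour can return to it through the blood. The labels give 3 libraries of tumour self-seeded cells (TSC) and 3 of primary tumour cells (PC), both taken from the primary tumour, and 2 of circulating tumour cells (CTC), taken from blood. All 3 groups are the same line and no label names a drug, a genotype, a host, a time or how the cells were separated. Whether replicates are separate animals or cultures is not stated, so the p-values measure only the spread between these libraries, which may be technical.

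Chaperones bind proteins that are unfolded or being made, and help them to fold, to cross membranes or to be degraded. HSP70 proteins (the HSPA genes) bind and release their clients in a cycle driven by ATP. DNAJ proteins carry the J domain, bring clients to HSP70 and start ATP hydrolysis, and the HSP110 proteins (HSPH1, HSPA4 and HSPA4L) release the nucleotide. HSP90 acts later on kinases and steroid receptors, HSPD1 and HSPE1 form the barrel and lid of the mitochondrial chaperonin, and the small heat shock proteins (HSPB) hold unfolded clients without ATP. When unfolded protein builds up, the factor HSF1 binds heat shock elements and raises cytosolic chaperones, while the unfolded protein response of the endoplasmic reticulum (ER) raises HSPA5 and HSP90B1. Tumour cells are known for high levels of many of these proteins.

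The letters that HSF1 is known to bind were looked for in the 250 bases before each RefSeq gene start (GRCh38.p14, the same build as hg38), as GAA, TTC and GAA in this order, or TTC, GAA and TTC, each separated by 2 bases of any kind, on either strand. The 2 spellings can overlap in 1 site. Promoters were given for 63 of the 72 genes, 82 in all. A match was found in 6 of the 82, each of a different gene, against 0.441% of all 35116 promoters. These stretches are shown because they separate the cytosolic and mitochondrial chaperones that carry the element from the ER pair further on. Capitals mark the matched letters, and each is written 5′ to 3′ on the strand of its gene.
HSPA8: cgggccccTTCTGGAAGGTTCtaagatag
HSP90AA1: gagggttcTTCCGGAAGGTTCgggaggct
HSP90AB1: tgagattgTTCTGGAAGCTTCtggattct
HSPD1: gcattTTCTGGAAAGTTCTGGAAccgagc
DNAJB6: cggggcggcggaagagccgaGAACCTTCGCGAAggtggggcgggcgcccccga
HSPA6: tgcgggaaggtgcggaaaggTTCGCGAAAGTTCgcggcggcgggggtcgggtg
They lie at chr11:123062171-123062199 (minus strand) for HSPA8, chr14:102087112-102087140 (minus) for HSP90AA1, chr6:44247823-44247851 (plus) for HSP90AB1, chr2:197500062-197500090 (minus) for HSPD1, chr7:157336853-157336905 (plus) for DNAJB6 and chr1:161524446-161524498 (plus) for HSPA6. HSPA8 and HSP90AB1 each had another match further upstream. In the HSPD1 stretch the 2 spellings overlap.

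The ER stress element was searched as CCAAT and CCACG separated by 9 bases of any kind, or as CGTGG and ATTGG at the same distance for the other strand, and was found in 0.074% of all promoters. Among the 82 promoters of the chaperones it was found in 2, those of HSPA5 and HSP90B1, the main HSP70 and HSP90 of the ER.
HSPA5: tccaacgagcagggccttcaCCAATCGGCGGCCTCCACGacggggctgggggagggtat
HSP90B1: cctgaCCAATCGGAAGGAGCCACGcttcg
HSP90B1 (nearer the start): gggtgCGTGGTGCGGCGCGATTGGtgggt
The HSPA5 stretch is at chr9:125241371-125241429 (minus), and those of HSP90B1 are at chr12:103930211-103930239 and chr12:103930316-103930344 (plus). A match describes letters in this window and is not a site shown to be bound.

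Of the 72 genes, 57 had enough counts to be tested, 5 had a few counts and 10 were listed at 0 in all libraries. The 10 were DNAJA3, DNAJB3, DNAJB8, DNAJC18, DNAJC28, HSPA12B, HSPA1L, HSPA7, HSPB3 and HSPB9. A 0 here does not show silence, since 16547 genes of the table were at 0 throughout, DNAJA3, a J protein of mitochondria in most cells, among them. Library totals ran from 957607 counts (CTC replicate 1) to 19264595 (PC replicate 3), so that 3 counts, taken as the floor, are worth 2.99 CPM (counts scaled to the library total) in CTC replicate 1 and at most 0.668 in the others. Intervals and floors of this kind cover counting error only.

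The libraries were checked against their labels with marker lists. Of 8 epithelial genes, 6 were counted in each group and CDX1 and LGALS4 were at 0 in all libraries. Of 18 leukocyte genes, 11 were counted in PC, 11 in TSC and 13 in CTC, and their summed level was 15.3 to 23.9 CPM in PC, 28.0 to 52.6 CPM in TSC, and 466 and 202 CPM in CTC replicates 1 and 2. CD3E, NKG7, S100A8 and S100A9 were among those at 0 in CTC. Erythroid genes summed to 50.4 to 63.3 CPM in PC, 80.4 to 93.5 CPM in TSC and 247 and 331 CPM in CTC. Both sums were higher in both CTC libraries than in any other, and their part in the results on CTC was not tested. In bulk RNA, fewer cells of a type and less RNA per cell cannot be told apart.

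Chaperone transcripts were abundant in all 3 groups. The 72 genes together held 2.02% to 2.42% of counts in PC, 1.91% to 2.71% in TSC and 2.45% and 2.89% in CTC. Most of this came from 3 genes, HSP90AB1 (the constitutive cytosolic HSP90), HSP90AA1 (its inducible partner) and HSPA8 (the constitutive cytosolic HSP70, HSC70), which summed to 12550 to 15585 CPM in PC, 12104 to 18031 CPM in TSC and 14868 and 18946 CPM in CTC. The groups overlapped in this sum.

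**Figure D1:**
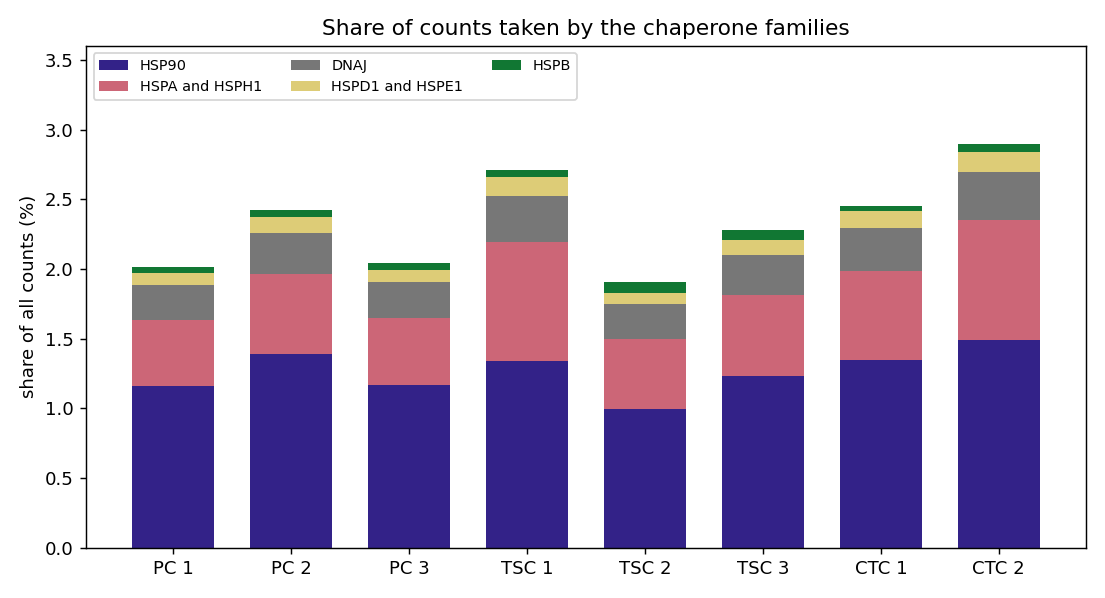
Share of each library's counts held by the chaperone families (vertical axis, percent of counts, stacked by family), for the 8 libraries by group. HSP90 and HSPA fill most of every bar, and the highest bar is CTC replicate 2 at 2.89%.

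Per length of the longest coding transcript, the order of levels was led by HSP90AB1, with a mean of 2155 CPM per kb in PC, 2135 in TSC and 2281 in CTC. It ranked between the 10th and the 17th of 13286 genes in each library. HSP90AA1 (1498, 1526 and 1872 CPM per kb) and HSPA8 (1044, 1578 and 1721 CPM per kb) followed. HSP90AA1 and HSPA8 exchanged the second and the third place between groups, and their ranges over libraries overlapped (1206 to 1947 against 936 to 2233 CPM per kb). The small heat shock protein HSPB1 (HSP27) had 525, 747 and 471 CPM per kb, HSP90B1 (GRP94) 445, 386 and 432, HSPD1 (HSP60) 371, 437 and 534, and HSPA5 (BiP) 258, 242 and 267 in the same order of groups. HSPB1, HSP90B1 and HSPD1 had overlapping ranges and their order differed between groups, while HSPA5 stayed below HSP90B1 in each. The most abundant DNAJ transcripts were DNAJA1 (166 CPM per kb in PC) and DNAJB1 (158), the common cytosolic partners of HSP70.

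**Figure D2:**
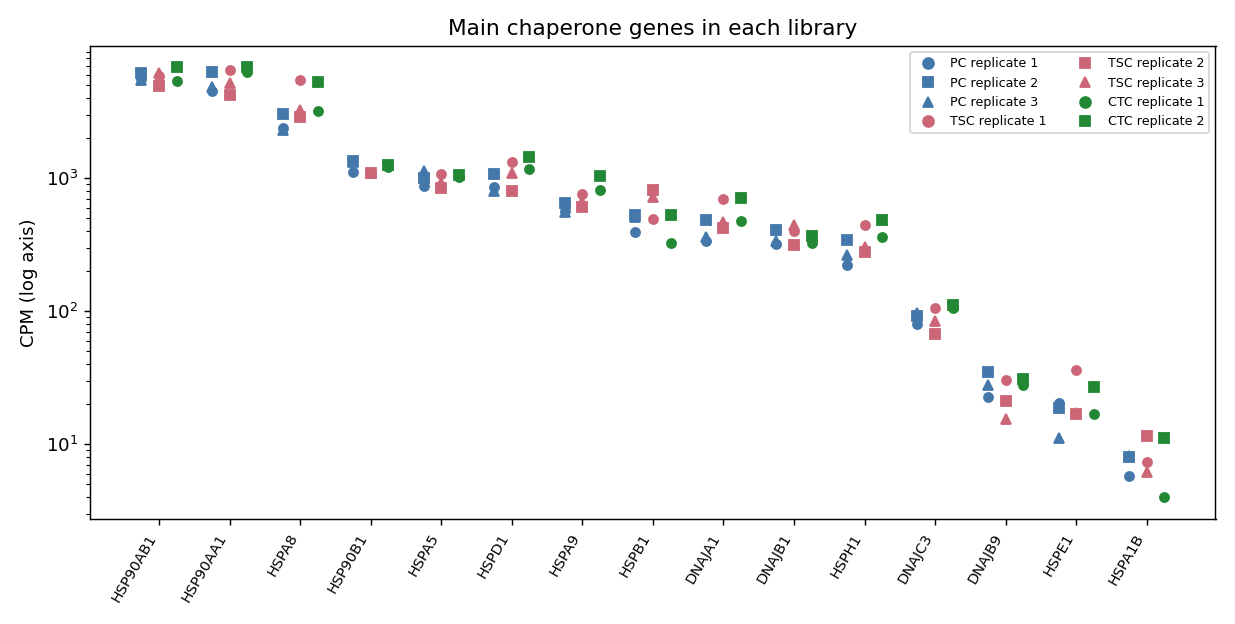
CPM, not scaled by length, on a log axis for the core chaperone genes (horizontal axis), 1 point per library with colour for the group and shape for the replicate. HSP90AB1, HSP90AA1 and HSPA8 stand at the top in all groups, and HSPA1B is the lowest of the genes drawn.

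The inducible HSP70 genes had few counts. HSPA1A had 6 counts in PC replicate 3 and 0 in the other libraries. HSPA1B had 69, 87 and 158 counts in the PC libraries, 33, 163 and 68 in TSC, and 4 and 117 in CTC, which is 5.78 to 8.20 CPM in PC, 6.15 to 11.5 CPM in TSC and 3.99 and 11.2 CPM in CTC, all overlapping. These 2 genes are near-identical copies: 72.6% of the 50-base stretches of the HSPA1A transcript also occur in HSPA1B. Of the HSPA1B stretches, 73.5% occur in other genes. Their split and their totals thus depend on how reads with several positions were treated, a step that the sources used here do not give. Few counts of these 2 genes therefore do not show low RNA. HSPA6, an HSP70 made almost only under stress, had 1, 0 and 1 counts in PC, 0, 0 and 5 in TSC, and 2 and 11 in CTC. Its tested status came from the CTC libraries alone, its counts are at or near the floor of 3, and it shares 45.5% of its 50-base stretches with other genes, so no fold is given.

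The first question was whether cells that returned to the tumour differ in chaperone RNA from primary tumour cells. None of the 57 tested genes was called between TSC and PC at an adjusted p under 0.05 (edgeR quasi-likelihood test), against 0.505% of all 14255 tested genes (0.224% higher, 0.281% lower). At an unadjusted p under 0.05 there were 5 (DNAJC9, HSPA8, HSPA4 and HSPB1 higher, DNAJC4 lower), against 10.3% of all genes (5.05% higher, 5.25% lower). The log2 fold change was above 0 for 39 of the 57, against 50.7% of all genes. Without HSPA6, which passed the filter through CTC alone, it was 38 of 56. The median of the 57 was 0.17, against 0.0063 over all genes. This median rested on TSC replicate 1: it was 0.018 without that library, and 0.029 with all libraries thinned to the shallowest one. In 7 of 57 the TSC and PC libraries did not overlap (5 higher, 2 lower), against 18.9% of all genes (8.96% higher, 9.9% lower).

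HSPA8, with the largest difference of the abundant genes, was measured at 2382, 3026 and 2306 CPM in the PC libraries and at 5500, 2890 and 3273 CPM in TSC. The first TSC library was high and the second lay within the PC range. Its log2 fold change was 0.60 ± 0.23 (SE, adjusted p = 0.397), and 0.24 without TSC replicate 1. HSPB1 was measured at 392, 528 and 513 CPM in PC and at 492, 819 and 725 CPM in TSC, and here the first TSC library was the lowest of the 3. Its log2 fold change was 0.51 ± 0.22 (adjusted p = 0.441). DNAJC9, a J protein that also binds histones, was at 79.0, 73.4 and 64.6 CPM in PC and at 117, 88.1 and 108 CPM in TSC, with all TSC libraries above all PC libraries. Its log2 fold change was 0.52 ± 0.18 (adjusted p = 0.308).

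By family, leaving out HSPA6, 9 of 11 tested HSPA genes had a log2 fold change above 0 in TSC, with a median of 0.30. HSPA9 (mortalin, the mitochondrial HSP70) stood at 0.19 ± 0.15 and HSPA5 at -0.09 ± 0.15. The exchange factors HSPH1 and HSPA4 stood at 0.30 ± 0.21 (adjusted p = 0.669) and 0.44 ± 0.18 (adjusted p = 0.436). Among HSP90 genes, HSP90AA1 stood at 0.03 ± 0.17 and HSP90AB1 at -0.01 ± 0.14. HSP90B1 was measured at 1126, 1356 and 1330 CPM in PC and at 1115, 1096 and 1096 CPM in TSC, so that the TSC libraries all lay below PC by a small margin (-0.21 ± 0.13, adjusted p = 0.641). The chaperonin pair HSPD1 and HSPE1 stood at 0.23 ± 0.19 and 0.46 ± 0.33, with overlapping libraries. Of 36 tested DNAJ genes, 22 were above 0, with a median of 0.10.

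Among the DNAJ genes the ends of the range were DNAJC15, a J protein of the mitochondrial inner membrane, and DNAJC4. DNAJC15 was at 19.8, 29.2 and 23.9 CPM in PC and at 59.9, 24.6 and 30.2 CPM in TSC, so that the first TSC library alone stood apart (0.63 ± 0.31, adjusted p = 0.515). DNAJC6 (auxilin, which helps HSPA8 to uncoat clathrin vesicles) was at 20.9, 23.4 and 19.4 CPM in PC and at 15.6, 16.1 and 15.1 CPM in TSC, without overlap (-0.44 ± 0.22, adjusted p = 0.51). DNAJB2, at -0.55 ± 0.27, had its lowest value in TSC replicate 1 (13.1 CPM), where PC held 30.1 to 39.0 CPM. The ER protein DNAJB9 (ERdj4) had -0.37 ± 0.26 and DNAJC3 (p58IPK) -0.09 ± 0.19. The SEs of the HSP90 genes and HSPA8 ran from 0.13 to 0.23 on the log2 scale, and an SE is not a limit of detection. HSPA8 at 0.60 ± 0.23 and DNAJC9 at 0.52 ± 0.18 were not called. Differences of that size could thus be missed with 3 libraries a group.

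**Figure D3:**
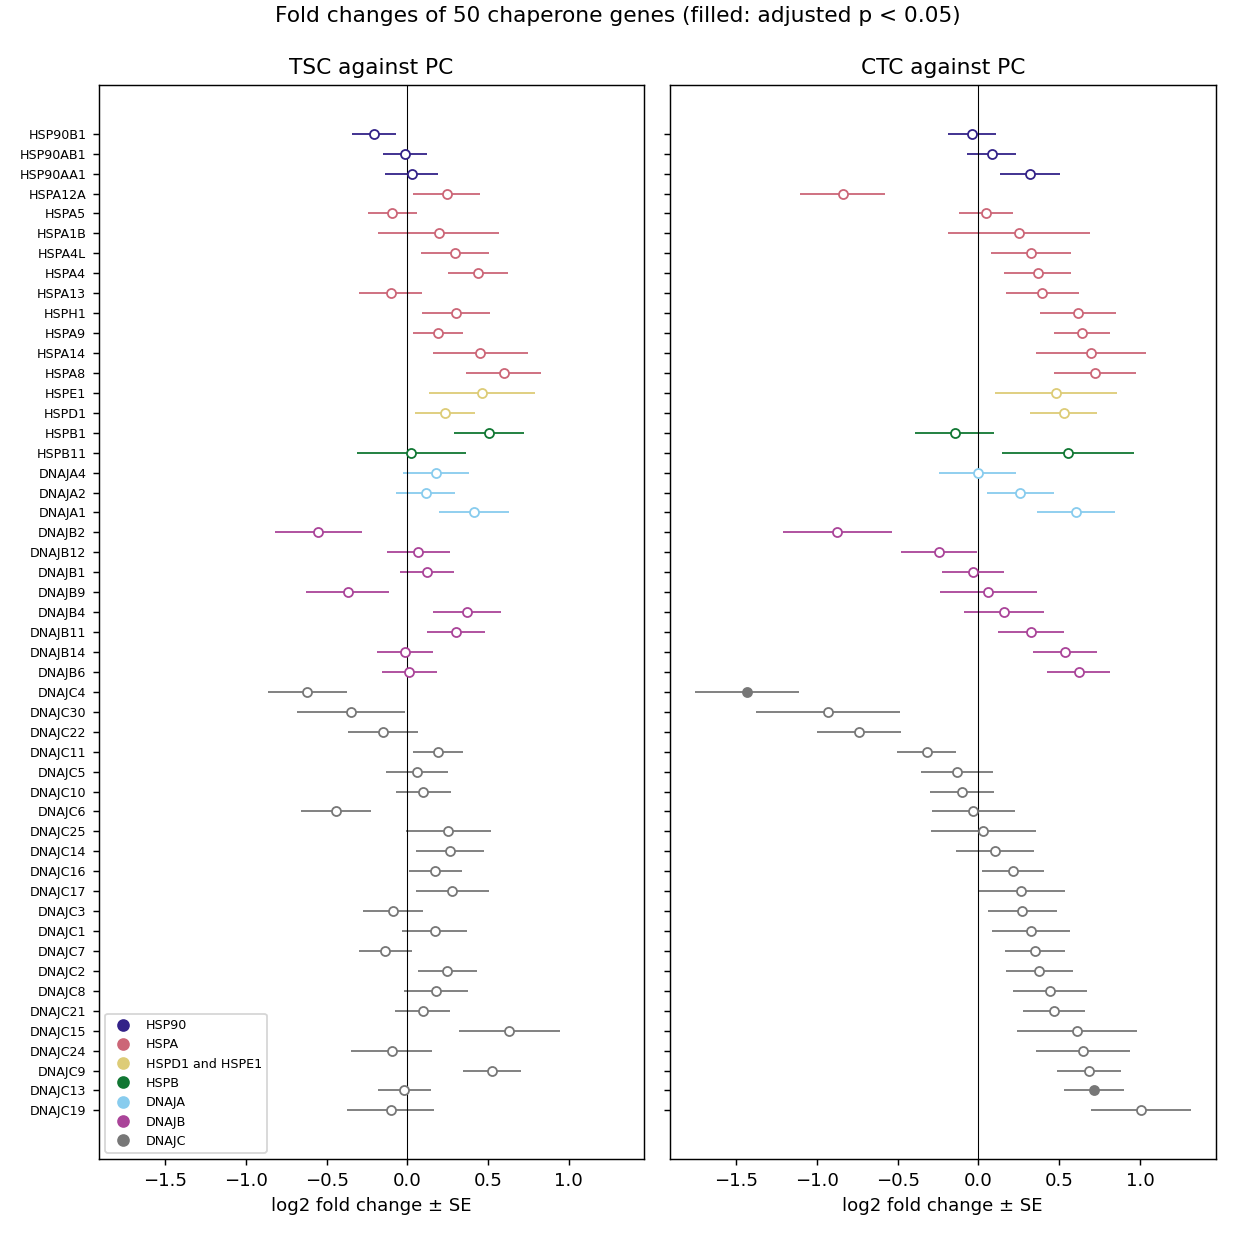
Log2 fold changes ± SE of the 50 chaperone genes whose average log2 CPM is 3 or more, for TSC against PC (left) and CTC against PC (right), by family colour; filled points have an adjusted p under 0.05. Filled points appear at right only, DNAJC4 on the low side and DNAJC13 on the high side.

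The second comparison asked how the cells in blood differ from those in the tumour. CTC against PC called 2 of the 57 genes, DNAJC13 higher and DNAJC4 lower, against 3.92% of all genes (1.4% higher and 2.52% lower), so the share of chaperones called was near the background. At an unadjusted p under 0.05 there were 17 (13 higher, 4 lower), against 23.6% (9.67% higher, 13.9% lower). The log2 fold change was above 0 for 40 of 57, with a median of 0.32, against 47.4% and -0.04 over all genes, and the median was 0.19 without CTC replicate 2. HSPA6, which passed the filter through CTC alone, is in these counts; over the 50 chaperones whose average log2 CPM was 3 or more, 36 were above 0 with a median of 0.30, against 51.5% and 0.019 over 9673 genes at that level. Without HSPA6, libraries did not overlap in 30 of 56 (24 higher, 6 lower), against 44.6% of all genes (19.9% and 24.7%). CTC and TSC were both set against the same 3 PC libraries, so their values are given side by side and not as separate evidence.

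DNAJC4, a J-domain protein, was the chaperone with the largest fall among those whose average log2 CPM was 3 or more. It was measured at 28.0, 19.9 and 30.9 CPM in PC, 14.7, 15.5 and 20.9 CPM in TSC, and 8.98 and 10.01 CPM in CTC. Both CTC libraries lay below all others, and TSC lay between, overlapping PC. DNAJC4 was 2.70-fold lower in CTC than in PC (log2 fold change -1.44 ± 0.32, adjusted p = 0.0256), and against PC the TSC value was -0.62 ± 0.25 (adjusted p = 0.41). The call was lost without CTC replicate 2 (adjusted p = 0.252), PC replicate 1 (0.0845) or PC replicate 3 (0.103), while the log2 fold change stayed between -1.59 and -1.29 whichever library was left out. The gene is on chromosome 11 (64230432 to 64234281), has a GC content of 64.2%, and 10.6% of its exonic bases overlap NUDT22 on the same strand. NUDT22 itself was at 8.57 to 11.9 CPM in PC and 3.99 and 8.39 CPM in CTC (-0.55 ± 0.42, adjusted p = 0.449).

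DNAJC13 (RME-8), a J protein of endosomes that works with HSPA8 in sorting, was measured at 67.4, 65.6 and 79.0 CPM in PC, 71.3, 70.9 and 67.4 CPM in TSC, and 120 and 113 CPM in CTC. The CTC libraries lay above all others, and TSC and PC overlapped. The part of blood cells in this value was not tested. DNAJC13 was 1.64-fold higher in CTC than in PC (0.72 ± 0.18, adjusted p = 0.0437), and TSC against PC stood at -0.02 ± 0.16. Leaving out a single library gave values from 0.68 to 0.82, and the adjusted p rose above 0.05 for each PC library (0.139, 0.137 and 0.0837), each CTC library (0.0822 and 0.23) and TSC replicate 3 (0.0737). It lies on chromosome 3 (132417502 to 132539032), and none of the 50-base stretches of its transcript occur in another gene.

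Next to these stood genes just beyond the threshold. HSPA9 was at 567, 658 and 557 CPM in PC, 758, 613 and 663 CPM in TSC, and 815 and 1036 CPM in CTC, with CTC above all other libraries. Its log2 fold change was 0.64 ± 0.17 (adjusted p = 0.0506). DNAJC19, a J protein of the import motor that draws proteins into the mitochondrial matrix with HSPA9, was at 9.21, 13.3 and 9.97 CPM in PC, 12.3, 8.47 and 9.86 CPM in TSC, and 19.9 and 22.9 CPM in CTC. It had the highest log2 fold change of the better counted genes (1.01 ± 0.31, adjusted p = 0.0753), again with CTC above all other libraries. The mitochondrial chaperones were not uniform: 5 of 7 tested were above 0 with a median of 0.53, and DNAJC30, another mitochondrial J protein, was at -0.93 ± 0.44 (adjusted p = 0.219), with 11.1 to 15.0 CPM in PC against 8.98 and 5.72 CPM in CTC.

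**Figure D4:**
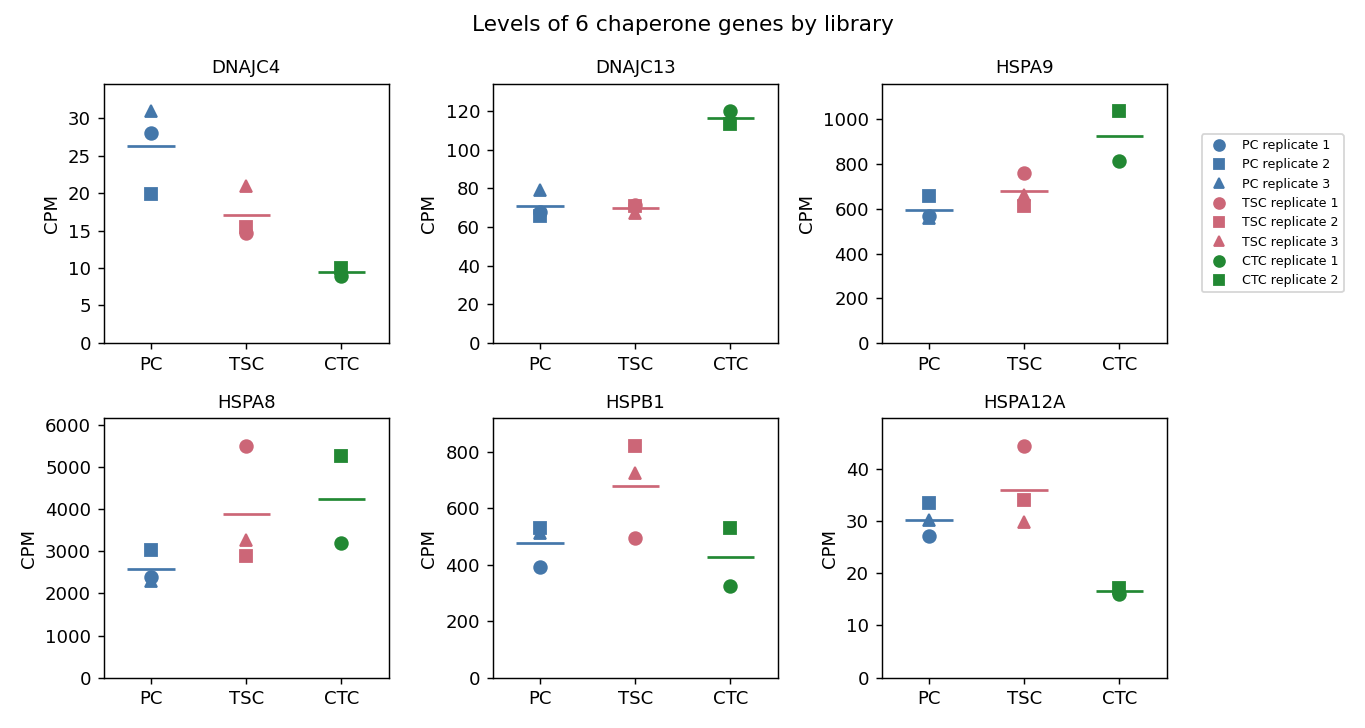
CPM by library (points, replicate by shape) with group means (lines) for DNAJC4, DNAJC13, HSPA9, HSPA8, HSPB1 and HSPA12A. DNAJC4 and HSPA12A are lowest and DNAJC13 and HSPA9 highest in both CTC libraries, while HSPA8 and HSPB1 spread widely within TSC and CTC.

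The cytosolic HSPA8 was at 3203 and 5274 CPM in CTC, both above PC. Its log2 fold change was 0.72 ± 0.25 (adjusted p = 0.108), 0.31 without CTC replicate 2 and 1.03 without CTC replicate 1. HSPA12A, a distant relative of HSP70, was at 27.1, 33.4 and 30.1 CPM in PC, 44.3, 33.9 and 29.8 CPM in TSC, and 16.0 and 17.3 CPM in CTC, below all other libraries (-0.84 ± 0.26, adjusted p = 0.08). Leaving out HSPA6, it was the only one of 11 tested HSPA genes below 0 in CTC. DNAJB6, a suppressor of protein aggregation, stood at 0.62 ± 0.19 (adjusted p = 0.08) and DNAJC9 at 0.68 ± 0.20 (adjusted p = 0.0663). DNAJB2, at -0.87 ± 0.34 (adjusted p = 0.137), and DNAJC22, at -0.74 ± 0.26 (adjusted p = 0.109), lay below PC in both CTC libraries.

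The 3 HSP90 genes and HSPA5 overlapped PC in the CTC libraries. HSP90AA1 stood at 0.32 ± 0.19 (adjusted p = 0.308), HSP90AB1 at 0.08 ± 0.15 and HSP90B1 at -0.04 ± 0.15. HSPA5 was at 882, 1014 and 1134 CPM in PC, 1076, 845 and 920 CPM in TSC, and 1019 and 1066 CPM in CTC, with no group apart (0.05 ± 0.17). The 12 ER genes had a median of 0.16, against 0.35 for 27 cytosolic and nuclear genes without HSPA6, and no test was made between them. HSPD1 was at 1183 and 1441 CPM in CTC against 807 to 1074 CPM in PC (0.53 ± 0.21, adjusted p = 0.144), HSPH1 at 364 and 486 against 225 to 347 (0.61 ± 0.24, adjusted p = 0.136), and HSPB1 at 325 and 531 against 392 to 528 (-0.15 ± 0.24). Of the 5 genes with the heat shock element letters shown above, leaving out HSPA6, all had a log2 fold change above 0 in CTC. Of these, 0 were called. Above 0 were also 39 of the 56 tested chaperones without HSPA6, and 47.4% of all genes. The 2 with the ER stress element stood at 0.05 and -0.04. The spelling searched was strict, so genes without a match are not shown to lack the element. Among genes without a listed match, DNAJB1 and HSPB1 stood at -0.03 and -0.15, and DNAJA1 and HSPH1 at 0.60 and 0.61. The part of the element in the CTC values was not tested.

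The CTC values moved with the GC content of the transcript, in the chaperones as in other genes. Over the 50 better counted chaperones the Spearman correlation of the log2 fold change of CTC against PC with GC was -0.46, and over 9614 genes it was also -0.46. For TSC against PC it was -0.02 and -0.05. These are correlations across genes, which share the same libraries and are not independent replicates. The 24 chaperones under 45% GC had a median of 0.39 (all genes 0.24) and the 8 at or over 55% GC a median of -0.20 (all genes -0.31). DNAJC4 lies at 64.2% GC and DNAJC13 at 41.4%, on the side of the relation that their differences follow. With GC and length fitted out, an alternative added after the data were seen, DNAJC4 stood at -1.27 (adjusted p = 0.0279), DNAJC13 at 0.70 (adjusted p = 0.0201), and 4 chaperones were called, against 4.83% of all genes under this correction.

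**Figure D5:**
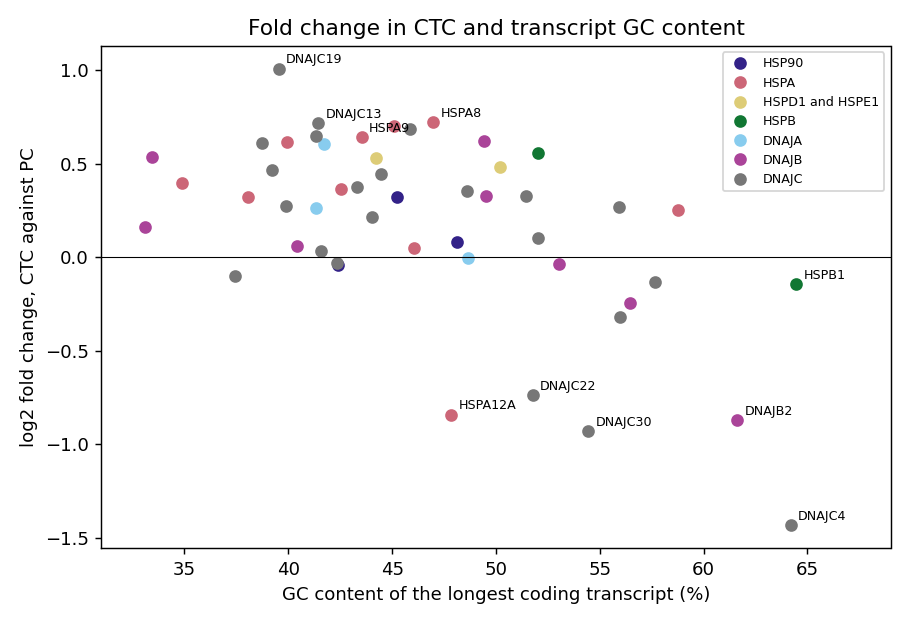
Log2 fold change of CTC against PC (vertical axis) against GC content of the longest coding transcript in percent (horizontal axis), 1 point for each of 50 chaperone genes, coloured by family. Points fall from left to right, with DNAJC4 lowest at 64.2% GC and DNAJC19 highest.

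The third comparison set self-seeded cells against circulating cells. None of the 57 genes was called between TSC and CTC at an adjusted p under 0.05, against 0.898% of all genes (0.372% higher, 0.526% lower). At an unadjusted p under 0.05 there were 13 (5 higher in TSC, 8 lower), against 16.7% (10.3% and 6.36%). Leaving out HSPA6, which passed the filter through CTC alone, libraries did not overlap in 18 of 56 (5 higher, 13 lower), against 28.4% (15.4% and 13%). The log2 fold change was above 0 for 21 of these 56, against 55%. The median log2 fold change of TSC over CTC was -0.13, against 0.06 over all genes, but it was 0.015 without CTC replicate 2 and -0.27 without TSC replicate 1, so its direction rested on single libraries. HSPA12A had the highest log2 fold change, at 1.09 ± 0.27 (adjusted p = 0.0761), with all 3 TSC libraries above both CTC libraries. DNAJC19 (-1.11 ± 0.31, adjusted p = 0.111), DNAJC13 (-0.73 ± 0.18, adjusted p = 0.0822) and DNAJC24, which acts in the making of diphthamide (-0.75 ± 0.30, adjusted p = 0.226), were lower in every TSC library than in every CTC library. HSPB1 stood at 0.66 ± 0.25 (adjusted p = 0.206) with overlapping libraries.

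Libraries of 1 group also differed among themselves. TSC replicate 1 held the highest TSC value for 36 of 57 genes and the highest of all 8 libraries for 18, whereas it was highest of all for 15.5% of all tested genes. CTC replicate 2 was the higher CTC library for 39 of 57 and PC replicate 2 the highest PC library for 34. The ratio of HSP90AA1 to HSP90AB1, 2 genes of similar level, was 0.819, 1.02 and 0.890 in PC, 1.11, 0.850 and 0.846 in TSC, and 1.18 and 1.00 in CTC, without separating the groups. Some genes share sequence with others, so that their counts are less certain. For 19 of the 72, over 20% of the 50-base stretches occurred in other genes, on either strand. Among them were HSPE1 (52.9%), HSPD1 (24.98%), DNAJC4 (23.2%) and HSP90AA1 (21.4%). HSPE1 shared most with HSPD1 (25.7%), which overlaps it on the opposite strand. HSPD1 shared most with the pseudogene HSPD1P1 (16.8%), and HSP90AA1 with the pseudogene HSP90AA2P (12.6%).

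The wider chaperone network was described from 64 further genes, of which 62 were tested. Between TSC and PC 0 were called (0.505% of all genes), between CTC and PC 1 (3.92%), and between TSC and CTC 0 (0.898%). The call was DDIT3 (CHOP), a transcription factor of the unfolded protein and integrated stress responses, at 17.5, 24.7 and 19.8 CPM in PC, 9.36, 12.4 and 12.0 CPM in TSC, and 9.97 and 7.34 CPM in CTC. PC lay above all other libraries, and the log2 fold change was -1.35 ± 0.34 in CTC (adjusted p = 0.0386) and -0.86 ± 0.26 in TSC (adjusted p = 0.216). The DDIT3 call in CTC was lost without CTC replicate 2 (-1.06, adjusted p = 0.355), PC replicate 1 (0.0776), 2 (0.131) or 3 (0.108) or TSC replicate 3 (0.0666), and after thinning (0.0873). HSF1 had 9, 6 and 19 counts in PC, 3, 11 and 11 in TSC, and 0 in both CTC libraries, where the floor allows up to 2.99 and 0.286 CPM, so no fold is given.

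The cytosolic chaperonin TRiC and prefoldin, which fold actin and tubulin, had 13 tested subunits. All 13 had a log2 fold change above 0 in CTC with a median of 0.44, against 47.4% above 0 and a median of -0.04 over all genes. Over genes whose average log2 CPM was 3 or more, as in all 13, these were 51.5% and 0.019. Their GC content ran from 35.3% (PFDN4) to 52.6% (PFDN2). Genes at that level under 45% GC had a median of 0.24, and the part of GC in this list was not tested. In 11 of the 13 the CTC libraries lay above PC without overlap (19.9% of all genes), and 0 were called (3.92%). PFDN2 was nearest the threshold, at 87.96, 97.2 and 86.8 CPM in PC, 111, 95.8 and 107 CPM in TSC, and 134 and 154 CPM in CTC (0.67 ± 0.18, adjusted p = 0.0506). In TSC 12 of the 13 were above 0 (50.7% of all genes, 55.5% of those at that level), with a median of 0.28 and 0 called. The TSC and PC libraries overlapped in all 13, where 18.9% of all genes did not overlap. How far this list rests on TSC replicate 1 was not tested. Of the 22 tested HSP70 and HSP90 co-chaperones, 20 were above 0 in TSC (50.7% of all genes) and 17 in CTC (47.4%). In either, 0 were called (0.505% and 3.92% of all genes). Of 13 organelle chaperones, 4 were above 0 and 9 below in each comparison, not all the same genes, beside the same shares. How far these 2 lists rest on TSC replicate 1 was not tested either.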

How the data were processed

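RNA was depleted of ribosomal RNA and sequenced, per the labels' protocols. The authors deposited raw counts per gene for all 8 libraries; the submitters' processing notes name STAR 2.5.3a, featureCounts 1.5.3 and hg38. Which annotation and strand setting were used, and how reads with several positions were treated, is not stated there. Library totals ranged from 957607 to 19264595 counts, and no 2 libraries agreed within sampling noise.

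The test was the quasi-likelihood test of edgeR 4.0.16 (R 4.3.3), after filterByExpr on the groups and TMM scaling, with all 8 libraries in 1 fit and Benjamini-Hochberg adjustment over 14255 tested genes. A gene was called at an adjusted p under 0.05. CPM used TMM-scaled totals. The SE is the log2 fold change divided by the square root of F. The code was tested on simulated data. Coordinates come from RefSeq, and transcript GC, lengths and shared 50-base stretches from GENCODE transcripts.

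Named genes were those called in any comparison, the 4 largest rises and falls of each comparison whose average log2 CPM is 3 or more, and a set of core chaperones; HSPA4, HSPA6, NUDT22 and PFDN2 were added after their values were seen. The genes and lists were chosen with earlier results of these data known, and the cell compartment of each gene was assigned by hand after that. Alternatives were DESeq2 size factors, no filter and a stricter filter on low counts (at least 50), DESeq2 1.42.0, limma-voom (limma 3.58.1), fits of 2 groups only, a replicate block and each library left out. GC and length correction and thinning to the shallowest library were added after the data were seen. Protein sequences were not used here.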

Additional observations from a re-analysis of the deposited data

How the results depend on the processing

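The 3 calls in CTC against PC (DNAJC4, DNAJC13 and DDIT3) kept their direction under every alternative tried. Of 1479 values of single genes under the alternatives, 1411 kept their side of the threshold, 48 passed it and 20 lost it. The 20 concern DNAJC4 (4), DNAJC13 (9) and DDIT3 (7) in CTC against PC. Values near 0 that were not called could change sign, among them DNAJC13 in TSC against PC (-0.02, and 0.08 with GC and length correction). The cause of these changes was not tested. For TSC against PC, the chaperones called were 1 with no filter on low counts (HSPA8; 1.54% of all genes there) and 1 with limma-voom (DNAJC9; 3.88%), against 0, and 1 of the wider network was called with limma-voom. Their median of 0.17 fell to 0.029 when thinned to the shallowest library and ran from 0.018 (without TSC replicate 1) to 0.22 when 1 library was left out.

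For CTC against PC, against 2 chaperones called, 5 were called with no filter (6.68% of all genes there), 5 with DESeq2 (7.89%), 7 with limma-voom (11.6%), 9 with only the 2 groups (10.2%), 4 with GC and length correction and 1 after thinning; leaving out 1 library gave 0 to 9. Of the network, against 1, the counts were 2 with DESeq2 size factors, 3 with no filter, 2 with the stricter filter, 4 with DESeq2, 6 with limma-voom, 7 with only the 2 groups and 0 after thinning, and 0 to 6 with 1 library left out. The median of 0.32 ran from 0.19 (without CTC replicate 2) to 0.39.

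For TSC against CTC, against 0 chaperones called, 2 were called with no filter (3.17% of all genes there), 2 with DESeq2 (2.74%) and 3 with limma-voom (3.09%), and 0 to 5 with 1 library left out, the 5 without TSC replicate 1. The network gave 1 with no filter, 1 with limma-voom and 0 to 1 with 1 library left out. The median of -0.13 ran from -0.27 (without TSC replicate 1) to 0.015 (without CTC replicate 2).

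Under a replicate block, CTC against PC called 0 chaperones and 0 of the network, with DNAJC4 at -1.25 (adjusted p = 0.0789), DNAJC13 at 0.75 (adjusted p = 0.0987) and DDIT3 at -1.37 (adjusted p = 0.0859). Deviations of same-numbered libraries from their group means correlated between -0.13 and 0.09. With 2 or 3 libraries a group such deviations depend on each other, so this check cannot tell whether same-numbered libraries are paired. The block gave 0 calls of chaperones in the other 2 comparisons. Depth limits CTC replicate 1 most, where DNAJC4 had 9 counts.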
